A study of Mus musculus with 55 samples.

Results

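The genes described here are 9 genes of fatty acid synthesis, Srebf1, Fasn, Acaca, Acly, Scd1, Elovl6, Me1, Thrsp and Pnpla3, taken by name out of the 24478 gene symbols in the table. No level entered the rule, but the list was drawn up with earlier results of these data known. Transcript levels were measured by RNA sequencing in 55 libraries of 10 cell populations sorted by FACS from the livers of C57B/L6 mice, of which 27 came from normal mice and 28 from mice that had undergone partial hepatectomy (PH, surgical removal of a portion of the liver, after which the remainder regrows). The main comparison was hepatocytes (HC) after PH, 4 libraries, against normal hepatocytes, 4 libraries. The other populations were clonal biliary epithelial cells (cBEC, 4 normal and 2 PH libraries), biliary epithelial cells (BEC, 4 and 2), non progenitor ducts (NPD, 2 and 2), endothelial cells (EC, 2 and 3), liver sinusoidal endothelial cells (LSEC, 3 and 5), Kupffer cells (KC, 2 and 3), hepatic stellate cells (HSC, 2 and 3), Thy1 cells (2 and 2) and blood cells (2 and 2). The labels name neither a sham-operated group nor the time after surgery, the animals' age or a sequencing batch, and they do not say whether replicates came from separate animals, so p-values measure only the spread between these libraries.

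Hepatocytes make fatty acids from carbohydrate when food is plentiful. Citrate leaves the mitochondrion and is split by ATP citrate lyase (Acly) to acetyl-CoA, acetyl-CoA carboxylase (Acaca) turns this into malonyl-CoA, and fatty acid synthase (Fasn) builds palmitate with NADPH that malic enzyme (Me1) helps to supply. The elongase Elovl6 lengthens palmitate and the desaturase Scd1 introduces a double bond, while insulin and glucose raise the transcription of these genes through SREBP-1c, a product of Srebf1, and ChREBP, the product of Mlxipl.

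All 9 genes were matched to the table by symbol, and each was read from 1 transcript row, that with the highest mean over all libraries. In mm9 coordinates as the table gives them, counted from 1, 4 of the 9 lie on chromosome 11: Srebf1 (NM_001313979, chr11:60012586-60034129, minus strand), Fasn (NM_007988, chr11:120667272-120685861, minus), Acaca (NM_133360, chr11:84008940-84215153, plus) and Acly (NM_001199296, chr11:100337666-100389314, minus). The others are Scd1 (NM_009127, chr19:44468940-44482199, minus), Elovl6 (NM_130450, chr3:129235304-129341411, plus), Me1 (NM_008615, chr9:86474970-86589947, minus), Thrsp (NM_009381, chr7:104561443-104566060, minus) and Pnpla3 (NM_054088, chr15:83998246-84019951, plus). Srebf1 has 2 rows with the same span, so these values do not separate its isoforms.

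RefSeq promoter windows of 300 bases, from 250 before to 50 after an annotated start, were read in the build GRCm38.p6 for 8 of the 9 genes, all but Scd1. Where a gene had several windows, the one nearest the start of its transcript was taken. Fasn, Acly and Thrsp are shown because all 3 were lower in hepatocytes after PH and hold the CCAAT box, the site known for binding NF-Y, which acts beside SREBP on many lipogenic promoters. Capitals mark CCAAT or its reverse complement ATTGG and the GC box GGGCGG or its reverse complement CCGCCC.
Fasn, chr11:120824498-120824797, minus strand: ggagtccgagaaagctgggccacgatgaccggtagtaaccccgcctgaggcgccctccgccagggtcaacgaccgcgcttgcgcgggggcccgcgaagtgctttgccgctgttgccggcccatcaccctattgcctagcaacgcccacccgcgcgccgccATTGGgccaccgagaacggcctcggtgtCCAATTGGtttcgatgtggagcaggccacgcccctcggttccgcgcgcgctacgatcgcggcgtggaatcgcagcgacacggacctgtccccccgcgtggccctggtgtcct
Acly, chr11:100527951-100528250, minus strand: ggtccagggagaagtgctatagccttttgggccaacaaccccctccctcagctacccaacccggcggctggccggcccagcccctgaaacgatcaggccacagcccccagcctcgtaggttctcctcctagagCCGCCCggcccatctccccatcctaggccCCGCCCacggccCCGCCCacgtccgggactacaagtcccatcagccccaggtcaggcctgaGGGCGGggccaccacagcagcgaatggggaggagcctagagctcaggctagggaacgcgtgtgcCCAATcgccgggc
Thrsp, chr7:97417501-97417800, minus strand: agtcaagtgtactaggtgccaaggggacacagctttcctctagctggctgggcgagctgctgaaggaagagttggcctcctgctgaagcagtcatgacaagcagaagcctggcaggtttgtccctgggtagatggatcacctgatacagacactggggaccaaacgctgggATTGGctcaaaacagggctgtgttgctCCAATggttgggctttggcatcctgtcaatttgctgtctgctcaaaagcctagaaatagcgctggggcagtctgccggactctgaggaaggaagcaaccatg
On both strands, CCAAT was found 3 times in the Fasn window, starting 90, 62 and 59 bases before the start, the last 2 overlapping. It was found at 79 and 52 bases before the Thrsp start and at base 38 after the Acly start. The start in the Thrsp window lies 180 bases from that of the transcript used here, against 0 for Fasn and Acly. A window with CCAAT was found for 4 of the 8 genes, Pnpla3 being the other, against 37.4% of 32851 windows in the genome. GGGCGG was found in 4 of 8 (Srebf1, Acly, Me1 and Pnpla3) against 35.7% of windows. A sterol-element-like string, TCACNCCAC, and the E-box CACGTG were each in 0 of 8 windows, against 1.24% and 7.15% of all windows. The shares for CCAAT and GGGCGG are close to those of promoters in general, and a string in a window is not a measured site.

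Values are FPKM, fragment abundance per transcript length and library size. They summed to 960918 to 1203197 in the hepatocyte libraries and to 624726 to 848630 in all others. Whether hepatocyte levels share a scale with the other populations was not tested. Read depth is unknown from such values. Summed levels of 8 hepatocyte marker transcripts were 94980 to 101550 FPKM in normal and 74126 to 104730 in PH hepatocyte libraries, and at most 858 in any other library. The hepatocyte libraries also differed in how their levels followed transcript GC content (Spearman correlation of each gene's deviation with GC between -0.68 and 0.71 over 6407 genes). Normal libraries 1 and 4, normal 2 and 3, and PH 3 and 4 lay much closer to each other (SD of the log2 difference 0.21 to 0.28) than all other pairs (0.53 or more). Results in hepatocytes are therefore also given after a GC and length correction and with those close libraries averaged to 1 replicate each, both chosen after the data were seen.

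In hepatocytes after PH, 6 of the 8 genes that could be tested were lower and 0 were higher. They were the regulator Srebf1, the acetyl-CoA and palmitate enzymes Acly, Acaca and Fasn, the desaturase Scd1 and the lipogenic cofactor Thrsp, and their mean levels were 2.19 to 16.2 times lower. Elovl6 and Me1 did not pass the test, and Pnpla3 was under the 1 FPKM needed for testing. For comparison, 4.41% of the 10029 genes tested in hepatocytes were lower and 1.78% were higher, by limma on log2(FPKM + 1) with Benjamini-Hochberg adjusted p under 0.05. The median log2 change of the 8 genes was -1.79, and that of all genes tested was -0.07. Of the 621 genes called, that is past this threshold, 71.2% were lower; that share was 58.5% after quantile normalization, 55.3% after the GC and length correction and 52.8% with close libraries averaged.

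**Figure D1:**
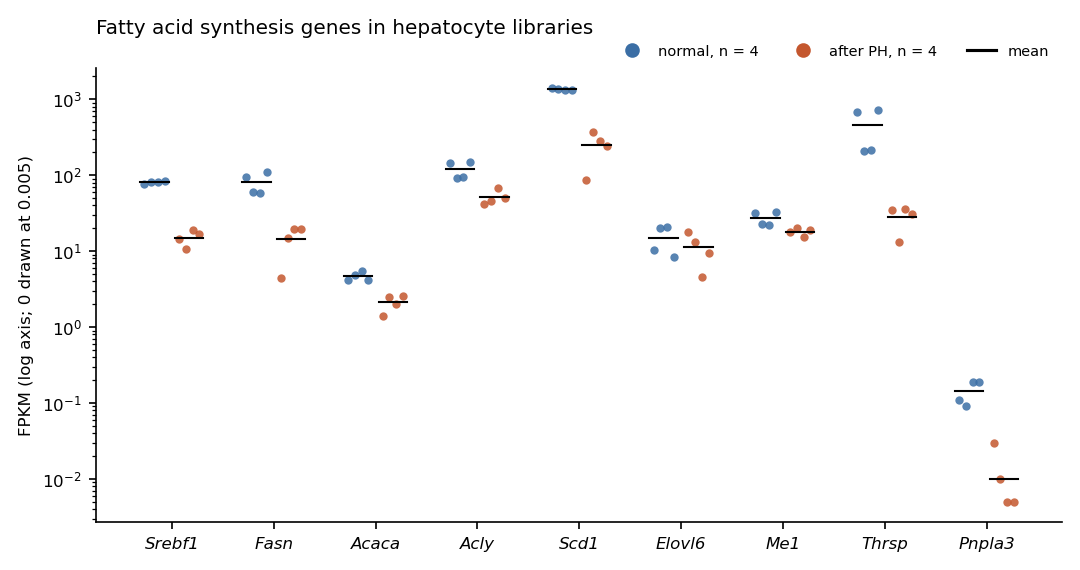
Levels of the 9 genes in each hepatocyte library, as FPKM on a log axis, in normal liver (blue, 4 libraries) and after PH (orange, 4 libraries), with bars at the group means and values of 0 drawn at 0.005. For every gene other than Elovl6 the 4 PH libraries lie below the 4 normal libraries.

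Srebf1, whose product drives transcription of the synthetic enzymes, was at 77.4, 80.9, 82.4 and 82.8 FPKM in normal hepatocyte libraries 1 to 4 and at 14.5, 10.6, 18.7 and 16.6 FPKM in PH libraries 1 to 4. The normal libraries were nearly level and each was more than 4 times as high as any PH library. Means were 80.9 ± 2.5 FPKM in normal and 15.1 ± 3.5 FPKM in PH hepatocytes (SD, n = 4 each). Srebf1 fell by 2.37 on the log2 scale (SE 0.21, adjusted p 0.000231). Of the genes tested, it was also among those least dependent on processing, being called under all 17 alternatives, with log2 changes from -2.48 to -1.96.

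Acly, which makes cytosolic acetyl-CoA from citrate, was at 146.8, 92.1, 95.2 and 148.5 FPKM in normal libraries 1 to 4 and at 42.4, 45.4, 68.0 and 50.1 FPKM in the PH libraries. All PH libraries were below all normal ones, and normal libraries 1 and 4 were higher than 2 and 3. The log2 change was -1.20 (SE 0.24, adjusted p 0.0199). This call was lost under 6 of 17 alternatives, namely without normal library 1 or 4, without PH library 2 or 4, with close libraries averaged and with a block on the replicate number (0.0718), with adjusted p from 8.62e-07 to 0.262 over all alternatives.

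Acaca, the cytosolic carboxylase that commits acetyl-CoA to fatty acid synthesis, had low levels of 4.13, 4.89, 5.46 and 4.13 FPKM in normal libraries and 1.40, 2.51, 1.99 and 2.58 FPKM in PH libraries. The groups did not overlap. The log2 change was -0.87 (SE 0.20, adjusted p 0.0314), the weakest of the 6 calls. It was lost under 11 of 17 alternatives, among them leaving out any 1 library other than PH library 1, with adjusted p from 0.00803 to 0.448.

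Fasn, the multi-domain enzyme that assembles palmitate, was at 94.2, 60.4, 59.1 and 109.9 FPKM in normal libraries and at 4.47, 14.7, 19.6 and 19.8 FPKM after PH. PH library 1 was the lowest, and the highest PH library was still far under the lowest normal one. Means were 80.9 ± 25.3 and 14.6 ± 7.2 FPKM (SD, n = 4 each), 5.53 times apart, with a log2 change of -2.51 (SE 0.43, adjusted p 0.00864). The call was lost with close libraries averaged (adjusted p 0.121).

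Me1, a source of cytosolic NADPH, was at 31.4, 22.6, 21.9 and 32.6 FPKM in normal libraries and at 17.8, 20.03, 15.5 and 19.2 FPKM after PH. The groups did not overlap but lay close together. The log2 change of -0.54 (SE 0.20) did not pass the test (adjusted p 0.159), nor did it under any of the 17 alternatives.

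Scd1, which places the double bond in palmitate and stearate, was the most abundant of the 9 genes, at 1388, 1365, 1327 and 1325 FPKM in normal libraries. After PH it was at 86.3, 377, 280 and 246 FPKM. As with Srebf1 the normal libraries were nearly level, and as with Fasn PH library 1 was the lowest. Means were 1351 ± 31 FPKM in normal and 247 ± 121 FPKM in PH hepatocytes (SD, n = 4 each). Scd1 fell by 2.63 on the log2 scale (SE 0.40, adjusted p 0.00502). That call too was lost with close libraries averaged (adjusted p 0.128).

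Elovl6, which extends palmitate to stearate, was at 10.3, 20.2, 20.8 and 8.44 FPKM in normal libraries and at 17.9, 13.1, 4.56 and 9.40 FPKM after PH. The 2 groups overlapped across most of their range. The log2 change was -0.42 (SE 0.41, adjusted p 0.613). Elovl6 was the only gene of the 9 whose PH libraries were not all below the normal ones.

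Thrsp (Spot 14), a nuclear and cytosolic protein that responds to thyroid hormone and carbohydrate and promotes lipogenesis, had the largest change of the tested genes. It was at 690.5, 205.6, 213.9 and 733.1 FPKM in normal libraries and at 34.3, 13.3, 35.4 and 30.7 FPKM after PH. Normal libraries 1 and 4 were 3.39 times higher than 2 and 3, yet the lowest normal library was still far above every PH library. The log2 change was -3.81 (SE 0.50, adjusted p 0.00231), and the call held under all 17 alternatives.

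Pnpla3, a lipid droplet hydrolase whose expression follows SREBP-1c, was barely detected, at 0.11, 0.09, 0.19 and 0.19 FPKM in normal libraries and 0.03, 0.01, 0 and 0 FPKM after PH. These values lie at the rounding of the hepatocyte columns, which carry 2 decimals, and no fold is given for them. Counting the tested genes alone, 7 of 8 had every PH library below every normal one, against 13.2% of all genes tested, and 0 of 8 had every PH library above, against 4.99%.

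The spread among normal libraries had a shape of its own. Fasn, Acly and Me1 were 1.71, 1.58 and 1.44 times higher in normal libraries 1 and 4 than in 2 and 3, and Elovl6 was 2.19 times higher in 2 and 3. Srebf1 and Scd1 differed little between those pairs, with ratios of 0.98 and 1.01. With the GC and length correction the same 6 genes were called, with log2 changes of -1.96 for Srebf1, -2.03 for Fasn, -2.55 for Scd1 and -3.75 for Thrsp. With close libraries averaged, 53 genes in all were called and 2 of the 9 were among them, Srebf1 (adjusted p 0.0302) and Thrsp (adjusted p 0.0329).

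Markers of other cells were low in the hepatocyte libraries. Of 6 adipocyte markers, Lep and Retn were at 0 in all 8 libraries, Adipoq, Plin1 and Cfd reached at most 0.03, 0.04 and 0.19 FPKM, and only Lipe, also expressed outside fat, was above 1 FPKM, at 5.8 to 10.99 FPKM in normal and 2.1 to 4.1 FPKM in PH libraries. The summed 6 Kupffer cell markers ranged from 0.13 to 8.32 FPKM in normal and from 4.18 to 123 FPKM in PH hepatocytes, with the highest value in PH library 2. The part of these cells in the results was not tested. In bulk libraries, fewer cells expressing a gene and less RNA per cell cannot be told apart.

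Regulators of the pathway were then read from the same comparison. Of 20 regulators listed, 19 were tested, 4 were lower, 0 were higher, and the median log2 change was -0.41. Mlxipl, encoding ChREBP, was at 30.7, 139.5, 127.4 and 34.8 FPKM in normal libraries and at 17.1, 16.6, 5.66 and 16.1 FPKM after PH. Its log2 change was -2.29 (SE 0.55, adjusted p 0.0388), a call that was lost under 10 of 17 alternatives, among them the GC and length correction (adjusted p 0.0705) and leaving out normal library 2 or 3 or any PH library. Normal libraries 2 and 3, high in Mlxipl, were the ones low in Thrsp.

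Mid1ip1, a partner of Thrsp that promotes polymerization of acetyl-CoA carboxylase, was at 44.1, 47.1, 50.1 and 44.0 FPKM in normal and at 8.35, 9.76, 13.3 and 9.76 FPKM in PH libraries. This is a clean separation, with a log2 change of -2.08 (SE 0.19, adjusted p 0.000294). Nr0b2 (SHP), a nuclear receptor that represses other receptors, fell by 1.63 on the log2 scale (adjusted p 0.00799). The remaining regulator called was Insig1, which retains SREBP in the endoplasmic reticulum and is itself an SREBP target, with a log2 change of -1.45.

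Enzymes that feed carbon and NADPH into the pathway were lower for 5 of 14 genes and higher for 0, with a median log2 change of -0.43. Acss2, which makes acetyl-CoA from acetate, and Pklr, the liver pyruvate kinase, fell by 1.91 (adjusted p 0.00625) and 1.62 (adjusted p 0.00994) on the log2 scale. All PH libraries were below all normal ones for both, with means of 121 and 30.9 FPKM for Acss2 and 76.5 and 24.7 FPKM for Pklr in normal and PH hepatocytes. The pentose phosphate enzymes G6pdx and Tkt were also called, with log2 changes of -1.35 and -0.92.

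**Figure D2:**
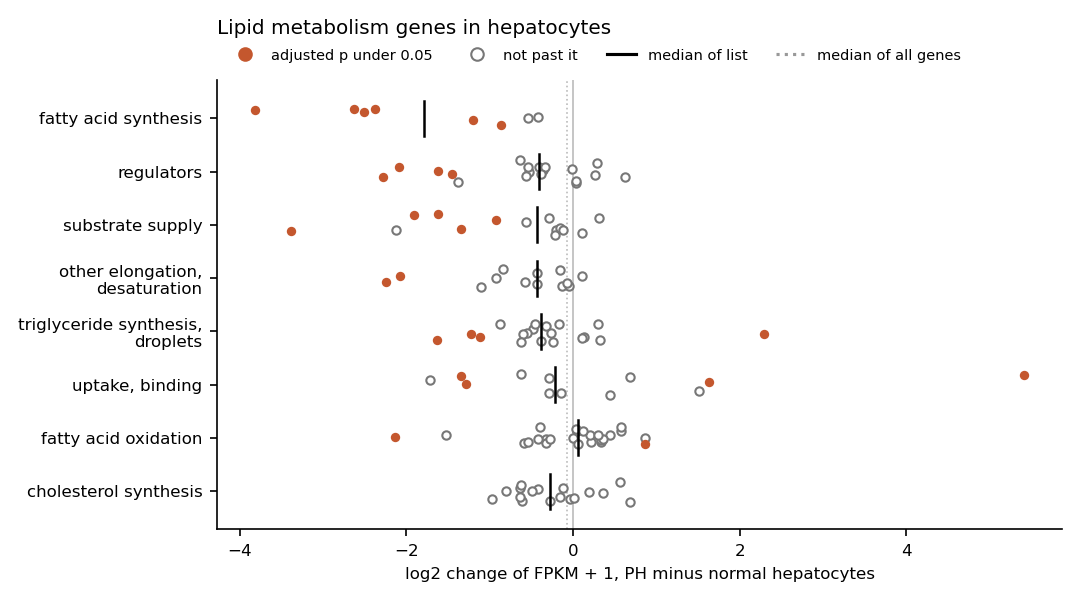
Log2 change of FPKM + 1 in hepatocytes after PH against normal for each tested gene of the synthesis group and of 7 lists of lipid genes; filled points passed an adjusted p of 0.05, black bars are list medians and the dotted line is the median of all genes tested. The synthesis group has its median at -1.79, and the 7 other medians lie between -0.43 and 0.06.

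Other elongases and desaturases, with the mitochondrial carboxylase Acacb and related genes, gave 2 lower and 0 higher of 13 tested (17 listed), with a median of -0.43. Acacb, whose malonyl-CoA restrains entry of fatty acids into mitochondria, was at 23.4, 18.8, 20.1 and 28.8 FPKM in normal and at 1.78, 5.44, 5.07 and 4.54 FPKM in PH libraries. PH library 1 was the lowest here as it was for Fasn and Scd1, and the log2 change was -2.24 (SE 0.29, adjusted p 0.00221). Elovl3, an elongase of saturated very long chain fatty acids, fell by 2.07 on the log2 scale (adjusted p 0.000535).

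Triglyceride synthesis and droplet genes gave 3 lower and 1 higher of 19 tested (22 listed). Acsl1, Gpam and Lpin1, which activate fatty acids, acylate glycerol phosphate and form diacylglycerol, had log2 changes of -1.64, -1.23 and -1.12. These calls were lost under 12, 6 and 7 of 17 alternatives. Cidec, a droplet fusion protein, rose instead, from 1.15, 1.12, 0.82 and 0.64 FPKM in normal libraries to 7.35, 6.88, 9.95 and 9.89 FPKM after PH. All PH libraries were above all normal ones, and the log2 change was 2.29 (SE 0.20, adjusted p 0.000230), called under all 17 alternatives. Not all normal libraries reached 1 FPKM, and Cidec met that filter only with the PH libraries.

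Fatty acid uptake and binding gave 2 lower and 2 higher of 12 tested (13 listed). Fabp4, a fatty acid binding protein of endothelium, fat and macrophages, rose from 0.29, 0.29, 0.79 and 0.76 FPKM to 118.5, 63.8, 48.3 and 43.5 FPKM (log2 change 5.41, SE 0.31, adjusted p 1.78e-05). All normal values were under 1 FPKM, so Fabp4 met the 1 FPKM filter through the PH libraries alone. In the EC libraries it stood at 1529 to 2939 FPKM and in the LSEC libraries at 1097 to 5295 FPKM. The 6 summed endothelial markers went from 0.09 to 3.25 FPKM in normal to 1.03 to 11.02 FPKM in PH hepatocyte libraries, with PH library 1 highest in both, and their part in the Fabp4 value was not tested. Fabp2 rose by 1.63 on the log2 scale (adjusted p 0.0103), and the transporter Slc27a5 and hepatic lipase Lipc had log2 changes of -1.35 and -1.28.

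Fatty acid oxidation and cholesterol synthesis showed few calls. Of 25 oxidation genes, all tested, 1 was lower (peroxisomal thiolase Acaa1b, log2 change -2.14) and 1 higher (mitochondrial dienoyl-CoA reductase Decr1, log2 change 0.87, lost under 13 of 17 alternatives), with a median of 0.06. Of 18 cholesterol synthesis genes, 17 were tested and 0 were called by limma (1 at an unadjusted p under 0.05), with a median of -0.28. Whether the synthesis genes differ from these lists as groups was not tested.

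For each of the 8 tested genes, up to 2 genes are given whose log2(FPKM + 1) profile over the 8 hepatocyte libraries lay nearest, by root mean square distance after centring, among all genes tested. Srebf1 was nearest to Ces1e and Elovl3 (distances 0.19 and 0.22), Fasn to Acaa1b and Acacb (0.31 and 0.32), and Scd1 to Acacb and Acaa1b (0.34 and 0.44). Thrsp had no close profile, with Afmid nearest at 0.68. The nearest to Acly were Gstm7 and Gsto1 (0.10 and 0.13), to Acaca Nisch and Cirbp (0.08 and 0.10), and to Me1 Zfp414 and Hpcal1 (0.09 and 0.14). Ercc5 lay at 0.12 from Elovl6. A small distance is easier to reach for a gene that varies little, as Acaca and Elovl6 do here relative to Thrsp.

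In normal liver, hepatocytes did not stand alone in their levels of these genes. Levels are set side by side as listed, though the hepatocyte columns had higher sums and other rounding than the rest. Mean Srebf1 was 80.9 FPKM in HC, 78.4 in cBEC and 68.1 in BEC, with overlapping libraries in that order, and 38.0 in blood or lower elsewhere. Mean Fasn was 80.9 in HC, 54.5 in BEC and 44.9 in cBEC, again overlapping from neighbour to neighbour, while EC, LSEC and KC had means of 1.74, 1.14 and 0.36 FPKM. Elovl6 and Me1 were highest in the same 3 populations, with cBEC first for both (25.5 and 27.9 FPKM).

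Acly was spread more evenly, from 36.5 FPKM in NPD to 155 in blood in normal liver, and HC, BEC, cBEC and KC lay within overlapping steps of each other. Acaca was highest in HC at 4.65 FPKM, apart from the next, cBEC at 3.20. Pnpla3 averaged under 1 FPKM in all 20 groups, with its highest mean, 0.996 FPKM, in normal cBEC, where single libraries ran from 0.09 to 2.24 FPKM.

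Scd1 and Thrsp must be read with the zeros in the table. Outside hepatocytes, Scd1 was listed at 0 in 19 of 23 normal and 7 of 24 PH libraries, and Thrsp in 17 of 23 and 11 of 24. Among genes reaching 10 FPKM in some library, those at 1000 FPKM or more in normal hepatocytes were listed at 0 in 68.9% of values in the other normal libraries, against 7.58% for those under 10 FPKM in normal hepatocytes. Scd1 is in the first of these sets, and Thrsp, with a mean of 461 FPKM in normal hepatocytes, is in neither. An exact 0 for Scd1, Thrsp or a hepatocyte marker is given as listed at 0 and not read as absence. The other genes were nearly free of zeros, with at most 2 zeros in the 24 PH libraries and 1 in the 23 normal ones.

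**Figure D3:**
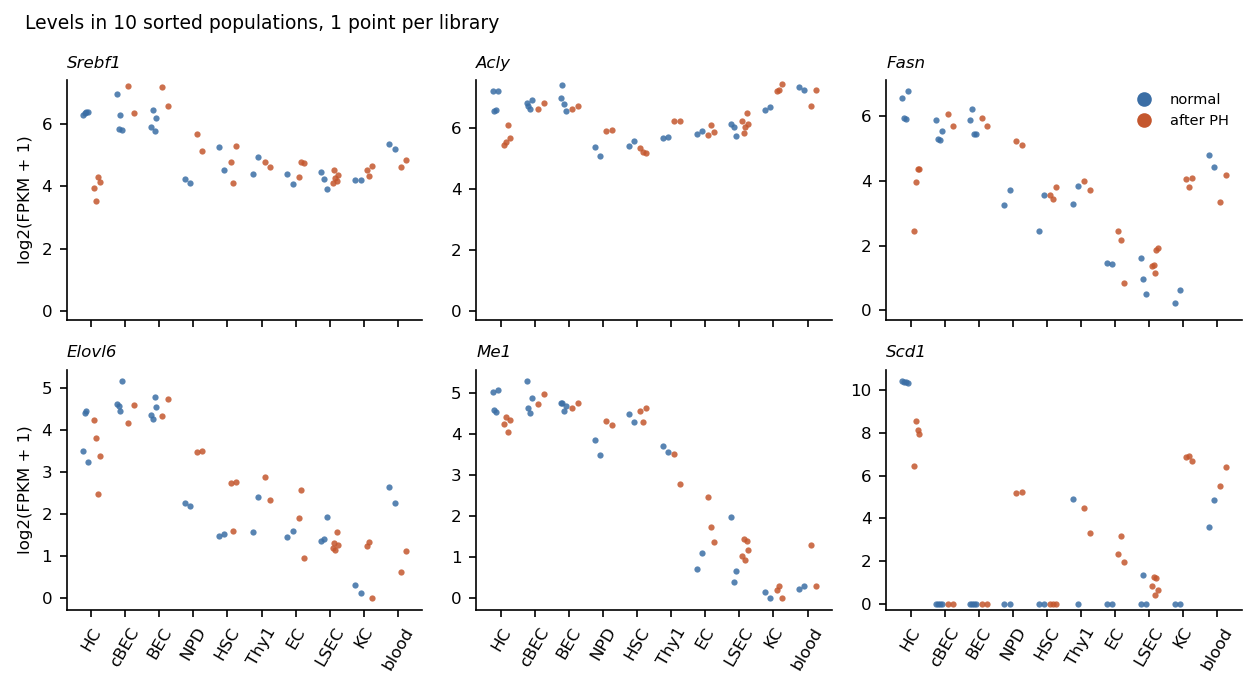
Levels of 6 of the genes in the 10 populations, as log2(FPKM + 1), with 1 point per library in normal liver (blue) and after PH (orange). For Srebf1 and Fasn the PH points lie under the normal points in HC and among or above them in cBEC and BEC, and Scd1 shows rows of zeros outside hepatocytes.

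After PH the order of populations was different, with the same limit on setting hepatocyte levels beside the others. Srebf1 had its lowest mean in HC, at 15.1 FPKM, and its highest in BEC and cBEC, at 120 and 115 FPKM, so that BEC stood 7.97 times above HC where in normal liver the ratio was 0.84. Fasn was 3.81 times higher in BEC than in HC after PH, and Acly 1.97 times. Scd1 was highest in HC at 247 FPKM, overlapping with KC at 113 FPKM.

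Whether the response to PH differed among the 10 populations was tested with the 9 interaction terms of a single fit. The test passed for 7 of the 9 genes, in a background in which 47.8% of 16527 genes passed. The adjusted p was 9.83e-09 for Srebf1, 2.24e-09 for Fasn, 1.17e-10 for Scd1, 3.45e-06 for Acly, 2.72e-05 for Thrsp, 0.0101 for Elovl6 and 0.0268 for Acaca. Me1 (0.0588) and Pnpla3 (0.503) did not pass. Acaca and Elovl6 missed the threshold with a pseudocount of 0.1 (0.144 and 0.0556), a block on the replicate number moved Acaca to 0.0504 and Me1 to 0.0177, quantile normalization moved Pnpla3 to 0.00339, and the values for Scd1 and Thrsp rest in part on listed zeros.

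The response of biliary cells, next to hepatocytes in the normal order for Srebf1, Fasn, Elovl6 and Me1, was compared with that of hepatocytes. In BEC, Srebf1 was at 59.1, 87.3, 53.7 and 72.3 FPKM in normal libraries and at 146 and 94.7 FPKM after PH, with both PH libraries above all normal ones. That difference in level did not pass the test within BEC (log2 change 0.80, SE 0.26, adjusted p 0.169). Its difference from the hepatocyte response did, at 3.18 on the log2 scale (SE 0.37, adjusted p 9.54e-08), where 3.26% of all genes differed between BEC and HC.

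Fasn in BEC was at 57.6, 74.1, 43.2 and 42.9 FPKM in normal and 60.8 and 50.8 FPKM in PH libraries, overlapping, and its response differed from that in HC by 2.58 (SE 0.52, adjusted p 0.00140). Acly differed by 0.95 (SE 0.26, adjusted p 0.0292). In cBEC, against a background of 3.77%, the same 3 genes differed from HC, by 2.94 for Srebf1, 2.90 for Fasn and 1.15 for Acly (adjusted p 5.24e-07, 0.000271 and 0.00544). These differences all use the same hepatocyte libraries. Acaca, Elovl6 and Me1 did not pass in either biliary population. Thrsp passed in both (adjusted p 0.000781 in BEC and 0.000738 in cBEC), and Scd1 in cBEC alone (0.04985). Scd1 and Thrsp were at 0 in all 12 biliary libraries, so their differences only restate the hepatocyte change and are not read.

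Within BEC and cBEC, 0 of the 6 and 7 genes tested were called by limma after PH, where 1.81% and 0.0681% of all genes were; at an unadjusted p under 0.05 the counts were 1 (Srebf1 in BEC) and 0. Of the PH cBEC libraries, replicate 1 carries a treatment tag of normal although its title says PH, and it was kept as titled. Its levels were 150 FPKM for Srebf1 and 66.1 for Fasn, and those of replicate 2 were 80.6 and 51.0 FPKM. Both lie within or above the normal cBEC range of 55.8 to 125 FPKM for Srebf1 and 37.8 to 57.6 for Fasn.

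**Figure D4:**
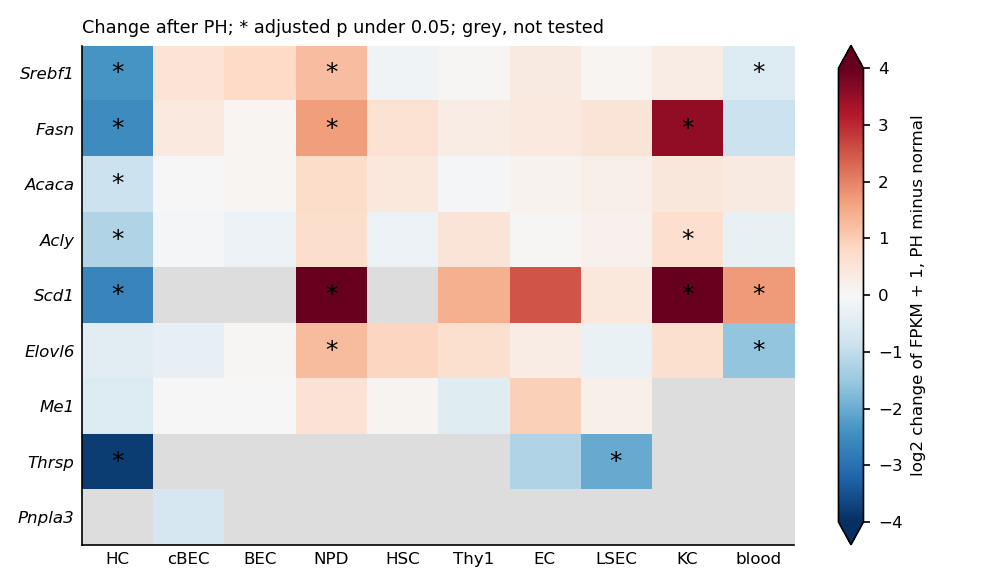
Log2 change of FPKM + 1 after PH against normal for the 9 genes in the 10 populations; asterisks mark adjusted p under 0.05, grey cells were not tested, and colours saturate at 4 in either direction. Asterisks fall on 6 genes in HC, all blue, and on 11 further cells in NPD, LSEC, KC and blood, of which Scd1 in NPD and KC is set against normal libraries listed at 0.

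Kupffer cells, the resident macrophages of the liver, had higher Fasn and Acly after PH. Fasn was at 0.17 and 0.55 FPKM in the normal libraries and at 15.7, 13.0 and 15.9 FPKM in the PH libraries, a wide gap (log2 change 3.56, SE 0.21, adjusted p 0.00127), though Fasn met the 1 FPKM filter through the PH libraries alone. Scd1 was listed at 0 in both normal libraries and was at 116, 119 and 103 FPKM after PH; against listed zeros neither a fold nor a test is read. Acly rose from 94.6 and 102 FPKM to 146, 150 and 174 FPKM (log2 change 0.66, SE 0.13, adjusted p 0.0128).

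The background in KC was high, with 36.8% of genes called. The Fasn call held under all 12 alternatives, but these refit the same libraries, and both normal values were under the 1 FPKM filter. The Acly call was lost after quantile normalization and without normal library 1 or 2 (adjusted p up to 0.102). Srebf1 was at 17.6 and 17.3 FPKM in normal and 22.1, 19.3 and 24.2 FPKM in PH libraries, and did not pass (adjusted p 0.157). Acaca and Elovl6 did not pass either, and Me1, Thrsp and Pnpla3 were not tested. All 8 hepatocyte markers were listed at 0 in every KC library, normal and PH. Such zeros do not show whether hepatocyte RNA was present. The summed Kupffer cell markers were 14217 to 15767 FPKM in normal and 30695 to 31688 FPKM in PH libraries. The 6 sinusoidal endothelial markers summed to 3240 to 4470 and 303 to 526 FPKM, and the 6 endothelial markers to 1096 to 1360 and 285 to 508 FPKM, in normal and PH KC libraries. The part of that change in cell mixture in the KC results was not tested.

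In NPD, the duct fraction labelled as lacking progenitors, 3 genes rose after PH, where 15.2% of all genes were called. Fasn went from 8.56 and 12.2 FPKM to 36.7 and 33.2 FPKM (log2 change 1.68, SE 0.22, adjusted p 0.0149), and Srebf1 from 17.9 and 16.2 to 49.9 and 34.3 FPKM (log2 change 1.23, SE 0.22, adjusted p 0.0282). Elovl6 went from 3.74 and 3.53 to 10.2 and 10.3 FPKM (log2 change 1.28, SE 0.20, adjusted p 0.0208). Scd1 was listed at 0 in both normal libraries and was at 36.0 and 36.2 FPKM after PH, and no test is read against these zeros. Acaca, Acly and Me1 did not pass, and Thrsp and Pnpla3 were not tested.

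No NPD libraries overlapped between groups for Srebf1, Fasn, Elovl6 and Scd1, nor for Acaca, Acly and Me1, which were not called. The share of all genes without overlap was counted in HC alone. The calls for Srebf1, Fasn and Elovl6 were lost without either PH library (adjusted p 0.237 to 0.333). That for Srebf1 was also lost without normal library 2 (0.0575) or with no filter on low values (0.0698), and that for Elovl6 in a single fit of all groups (0.0554). Beside them, the summed biliary markers were 2584 and 3795 FPKM in normal and 3937 and 4692 in PH libraries as lowest and highest. Among them Krt19, Krt7 and Sox9 were higher after PH, Epcam and Spp1 overlapped, and Cftr was lower (14.2 to 15.9 and 8.42 to 9.78 FPKM). The stellate markers summed to 3258 to 3792 and 1258 to 1343 FPKM, mostly Dcn (2911 to 3418 and 1104 to 1181 FPKM). Ecm1 and Colec11 were also lower after PH, Lrat and Reln overlapped, and Des was higher (1.81 to 4.62 and 7.44 to 13.5 FPKM). Whether the cell mixture changed, and its part in the NPD results, was not tested. Hepatocyte markers summed to at most 58.3 FPKM in PH NPD, with 5 to 8 of the 8 listed at 0.

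LSEC gave 1 call, where 8.46% of all genes were called, and only Pnpla3 was not tested. Thrsp was at 12.2, 24.5 and 8.83 FPKM in normal libraries and at 0.95, 4.59, 2.22, 3.53 and 3.30 FPKM after PH, with no overlap (log2 change -2.02, SE 0.39, adjusted p 0.0132). It was lost without normal library 1 or 2 (0.0565 each). Hepatocyte markers in these libraries ranged from 0 to 37.1 FPKM in normal and from 0 to 0.37 FPKM in PH libraries. Of the 8 markers 6 to 8 were listed at 0, and their part in the Thrsp value was not tested.

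In blood cells, where 64% of genes were called, Elovl6 fell from 5.21 and 3.82 FPKM to 0.52 and 1.18 FPKM (log2 change -1.59, SE 0.27, adjusted p 0.00703). Srebf1 fell from 40.5 and 35.5 to 23.4 and 27.7 FPKM (log2 change -0.56, SE 0.17, adjusted p 0.0351), and Scd1 rose from 11.2 and 28.2 to 44.2 and 83.1 FPKM (log2 change 1.71, SE 0.52, adjusted p 0.0390). Fasn, Acaca and Acly did not pass, and Me1, Thrsp and Pnpla3 were not tested. The share called among the tested members was thus under that of all genes. All 3 calls were lost without either normal library, the Srebf1 and Scd1 calls also without PH library 1 (0.0740 and 0.0549), and the Scd1 call without PH library 2 (0.172); the Srebf1 call held under 3 of 11 alternatives. All 6 Kupffer cell markers were higher in PH blood, with sums of 530 to 826 FPKM in normal and 10803 to 18898 FPKM in PH libraries. The 6 blood markers summed to 4146 to 4366 and 533 to 985 FPKM. The part of that change in the blood results was not tested.

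In EC, Thy1 cells and HSC, 0 of the genes tested were called, where 0.0249%, 0.00747% and 0.00853% of all genes were, which is 3, 1 and 1 genes. At an unadjusted p under 0.05 by limma the counts were 1, 0 and 0. The 1 gene, Scd1 in EC, was listed at 0 in both normal libraries and was at 4.08, 8.18 and 2.92 FPKM after PH. Stellate cells had Me1 levels near those of hepatocytes, at 21.3 and 18.5 FPKM in normal and 22.3, 18.4 and 23.6 FPKM in PH libraries, with overlap. A missed threshold in groups of 2 and 3 libraries does not show that levels were equal. Compared with HC, the Srebf1 response differed in each of the 3, by 2.74 in EC, 2.41 in Thy1 and 2.23 in HSC on the log2 scale (adjusted p 7.03e-06, 7.37e-05 and 9.36e-05). Within EC, Thy1 and HSC its log2 changes were 0.36, 0.04 and -0.15, against -2.37 in HC. The differences thus mostly restate the fall in the same hepatocyte libraries. The share of all genes that differed from HC was not counted for these populations.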

How the data were processed

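FPKM values were deposited by the authors as 1 table of 36141 RefSeq transcript rows for 55 libraries; the submitters' processing notes name CASAVA 1.8.2, Bowtie 1.0.0 and the build mm9, and the counting tool is not given in the sources used here. For each of 24478 symbols the row with the highest mean was used. Table starts are counted from 0 and were raised by 1. Groups follow sample titles.

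PH was compared with normal within each population by moderated linear models (limma 3.58.1, R 4.3.3) of log2(FPKM + 1), which understates changes of low genes, with trended, robust variances, two-sided, adjusted over all genes with at least 1 FPKM in as many libraries as the smaller group has. Responses were compared in a single fit of 20 groups. The members, lists and tests were chosen with earlier results of these data known. Named genes were all members, the called list genes with the largest changes (at most 3 a direction) and the 2 nearest profiles; Insig1, G6pdx and Tkt were named after their values were seen. A few further named genes are left unreported. The fit was tested on simulated data with independent noise in each library. Those data lack the close hepatocyte libraries seen here, so that test does not bear on them. Alternatives were a pseudocount of 0.1, no filter, quantile and upper-quartile scaling, a single fit, a replicate block, summed rows and leaving out each library; the GC and length correction and the averaging of close libraries were added after seeing the data. Figures used Python 3.11.15 and matplotlib 3.10.9.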

Additional observations from a re-analysis of the deposited data

Results flagged for a closer look

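Thrsp in hepatocyte library 2 after PH, at 13.3 FPKM, lay farther from its 3 group members than Dixon's 95% limit allows on the log2(FPKM + 1) scale. It was the 1 such value among 41 examined, where chance gives about 2.05. The other 3 PH libraries were at 30.7 to 35.4 FPKM, and all normal libraries at 205.6 FPKM or more.

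The response to PH differed between populations by the F test of the interaction terms, with adjusted p of 9.83e-09 for Srebf1, 2.24e-09 for Fasn, 0.0268 for Acaca, 3.45e-06 for Acly, 1.17e-10 for Scd1, 0.0101 for Elovl6 and 2.72e-05 for Thrsp. Srebf1 was lower in HC and blood and higher in NPD, and Fasn was lower in HC and higher in NPD and KC. Scd1 was lower in HC and higher in blood. In NPD and KC all normal Scd1 values are listed at 0, so its F test, like that of Thrsp, rests in part on listed zeros.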

How the results depend on the processing

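In hepatocytes, 4 to 6 of the genes were called when 1 library was left out and 4 to 7 under the other planned settings, with Pnpla3 included when no filter was set; 6 were called after the GC and length correction and 2 with close libraries averaged. Srebf1 and Thrsp were called under all 17 alternatives, Fasn and Scd1 under 16, Acly under 11 and Acaca under 6. All genes called in hepatocytes numbered 302 to 687 with 1 library left out, 302 with the replicate block, 444 with no filter, 1364 in the single fit, 1310 after the GC and length correction and 53 with close libraries averaged, against 621. The 21 pathway genes called became 13 to 19 with 1 library left out (13 without PH library 4), 5 with close libraries averaged and 31 in the single fit. Outside hepatocytes, 11 gene and population pairs were called, Scd1 in NPD and KC against listed zeros among them, and 7 to 14 with 1 library left out, 7 without PH NPD library 1 or 2. Of the nearest profiles, Ercc5, at -0.25 on the log2 scale, ranged from -0.49 to 0.027 with 1 library left out and turned positive without PH hepatocyte library 3 (adjusted p 0.972).

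Replicate numbers are shared between groups, but the labels do not say that they pair libraries, and deviations of same-numbered hepatocyte libraries correlated at -0.30, 0.61, -0.68 and 0.51. With the replicate block, 4 genes (without Acaca, adjusted p 0.0966, and Acly, 0.0718) and 15 pathway genes were called in hepatocytes, and 10 pairs elsewhere (without Thrsp in LSEC, 0.103, and Srebf1 in blood, 0.0649, and with Elovl6 in KC, 0.0119). Elovl6 in KC, like Fasn there, met the 1 FPKM filter through PH libraries alone. The interaction test called 5 to 8 genes over its settings, and 7 with the block, which lost Acaca (0.0504) and gained Me1 (0.0177). Depth is unknown, so low levels such as those of Pnpla3 carry no counting limit.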

Other observations

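Lpin1, a phosphatidate phosphatase of triglyceride synthesis and a coactivator, was lower after PH in more than hepatocytes; it was singled out after its levels had been seen. In all 10 populations its mean was lower after PH, and in each the PH libraries lay below the normal ones. In blood its mean went from 21.2 to 5.16 FPKM (log2 change -1.85, SE 0.18, adjusted p 0.00169 by limma), in KC from 7.41 to 2.40 FPKM (-1.30, SE 0.22, 0.00910) and in HC from 6.72 to 2.64 FPKM (-1.12, SE 0.25, 0.0272). In the other 7 populations it did not pass the test, with log2 changes from -1.07 in HSC to -0.57 in BEC and adjusted p from 0.0693 in LSEC to 0.694 in HSC. How many of all genes were lower, or did not overlap, in all 10 populations was not counted, so the Lpin1 pattern has no background. Of all genes tested, 64% were called in blood and 36.8% in KC in either direction, and 4.41% were lower in HC. The 10 comparisons use different libraries, and the labels do not say whether the populations were sorted from the same animals.

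Cidec, which rose in hepatocytes, averaged at most 0.94 FPKM in every other group. The highest other single library was 1 of PH blood, at 1.88 FPKM.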
